A study of Mus musculus with 6 samples.

Results

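Lysosomal hydrolases, their activator proteins and the membrane proteins of the lysosome were followed in RNA of mouse intestine. A list of 34 genes was taken by symbol from the count files, with the requirement of at least 10 counts summed over the 6 libraries. All 34 met it, with sums between 123 (Galc) and 60209 (Lamp1), and all 34 were among the 12106 genes tested of 23284 in the files. They comprise 9 cathepsins and other proteases, 10 glycosidases, 3 sulfatases, 6 lipid hydrolases and activators, 5 membrane proteins, and Gnptab, an enzyme that tags hydrolases for delivery.

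The libraries came from small intestine, labelled as both jejunum and ileum, of male mice aged 8 weeks. One group was wild type (WT, 3 libraries) and the other, SHP-KO (3 libraries), lacked the small heterodimer partner, a nuclear receptor encoded by Nr0b2 that represses transcription. Both groups were deprived of food overnight and then refed for 6 h. The labels name neither the strain nor how the allele was made, and do not say whether each library is a separate animal, so the p-values reflect the spread among these libraries alone, which may be technical.

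Lysosomes are acidic organelles in which proteins, glycans and lipids from endocytosis and autophagy are taken apart. Most soluble hydrolases are made in the endoplasmic reticulum, receive a mannose 6-phosphate tag in the Golgi and are carried to the lysosome by receptors for that tag, while a proton pump keeps the lumen acidic. The transcription factors TFEB and TFE3 bind a CACGTG-containing element in many of these genes. In the intestine, absorptive cells, macrophages and other immune cells all hold lysosomes.

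Total counts were 7956528 to 9289543 in SHP-KO and 11265437 to 13511800 in WT libraries. Nr0b2 had 31, 14 and 23 counts in the WT libraries and 1, 0 and 0 in the SHP-KO libraries. Of 8 epithelial markers 3 rose and 4 fell, with a median log2 fold change of -0.04, and their summed level was 23561 to 23759 CPM (counts divided by library size, scaled with TMM factors) in WT and 23191 to 23215 in SHP-KO. Beside the marker counts of this paragraph, 35.2% of all tested genes rose and 35.4% fell (edgeR, adjusted p under 0.05). Other marker lists shifted in these libraries: all 12 smooth muscle markers, 7 of 8 tested fibroblast and matrix markers and all 4 tested adipocyte markers rose, while B and plasma cells had 11 of 12 markers lower. Summed levels went from between 410.4 and 417 to between 1536 and 1568 CPM for smooth muscle, from between 136 and 154 to between 330.1 and 340.0 CPM for fibroblasts and matrix, and from between 117 and 120.2 to between 156 and 168 CPM for adipocytes. Markers of intestinal segments shifted as well: of 11 upper small intestine markers 9 rose and 2 fell, and of 12 ileum markers 5 rose and 7 fell. The summed level of the upper small intestine markers went from between 8884 and 8979 to between 28838 and 29307 CPM. That of the ileum markers went from between 23730.5 and 23979 to between 8241 and 8511 CPM. The labels do not give the share of jejunum and ileum in each sample, so a difference in that share and the loss of SHP cannot be told apart. In bulk tissue, fewer cells of a type and less RNA per cell cannot be told apart either.

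Lysosomal genes differed between the genotypes in both directions, and falls outnumbered rises. Of 34 genes 17 fell, 10 rose and 7 did not pass (edgeR quasi-likelihood test, Benjamini-Hochberg adjusted p under 0.05). These 27 calls are 79.4% of the members, beside 70.6% of all tested genes. The falls are 17 of 34, beside 35.4% of all tested genes, and the rises are 29.4%, beside 35.2%. The median log2 fold change (SHP-KO over WT) was -0.22 for the members and -0.01 for all tested genes.

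Larger changes were mostly falls. Changes of at least 1.5-fold passed in 15 members (44.1%, beside 37.1% of all tested genes). Of these, 12 fell (35.3%, beside 17.5%) and 3 rose (8.82%, beside 19.5%). Changes of at least 2-fold passed in 6 members (17.6%, beside 20.0%), and all 6, namely Neu1, Ctsc, Asah1, Ctsh, Arsb and Lgmn, fell. The groups' CPM did not overlap in 28 members, 18 lower and 10 higher in SHP-KO (82.4%, beside 72.0% of all tested genes).

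The authors' deposited table, which lists all 34 members, calls 14 of them, 12 lower and 2 higher. That is 41.2% of members beside 34.6% of the genes in the authors' deposited table, with 35.3% beside 15.6% for falls and 5.88% beside 19.0% for rises. An exact test with an assumed coefficient of variation (CV) of 0.2 called the same 14 genes: Neu1, Ctsc, Asah1, Ctsh, Arsb, Lgmn, Smpd1, Glb1, Gla, Ctsl, Psap and Ctsd as lower, and Gaa and Ctsz as higher. The deposited table and this exact test come from the same libraries, so their match is not independent support for the 14 calls. The other 13 calls rest on the spread estimated from these libraries, which was small. The CV of the members' CPM had a median of 4.11% in WT and 5.65% in SHP-KO, and reached 19.4% for Cln3 in WT and 26.9% for Gla in SHP-KO.

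**Figure D1:**
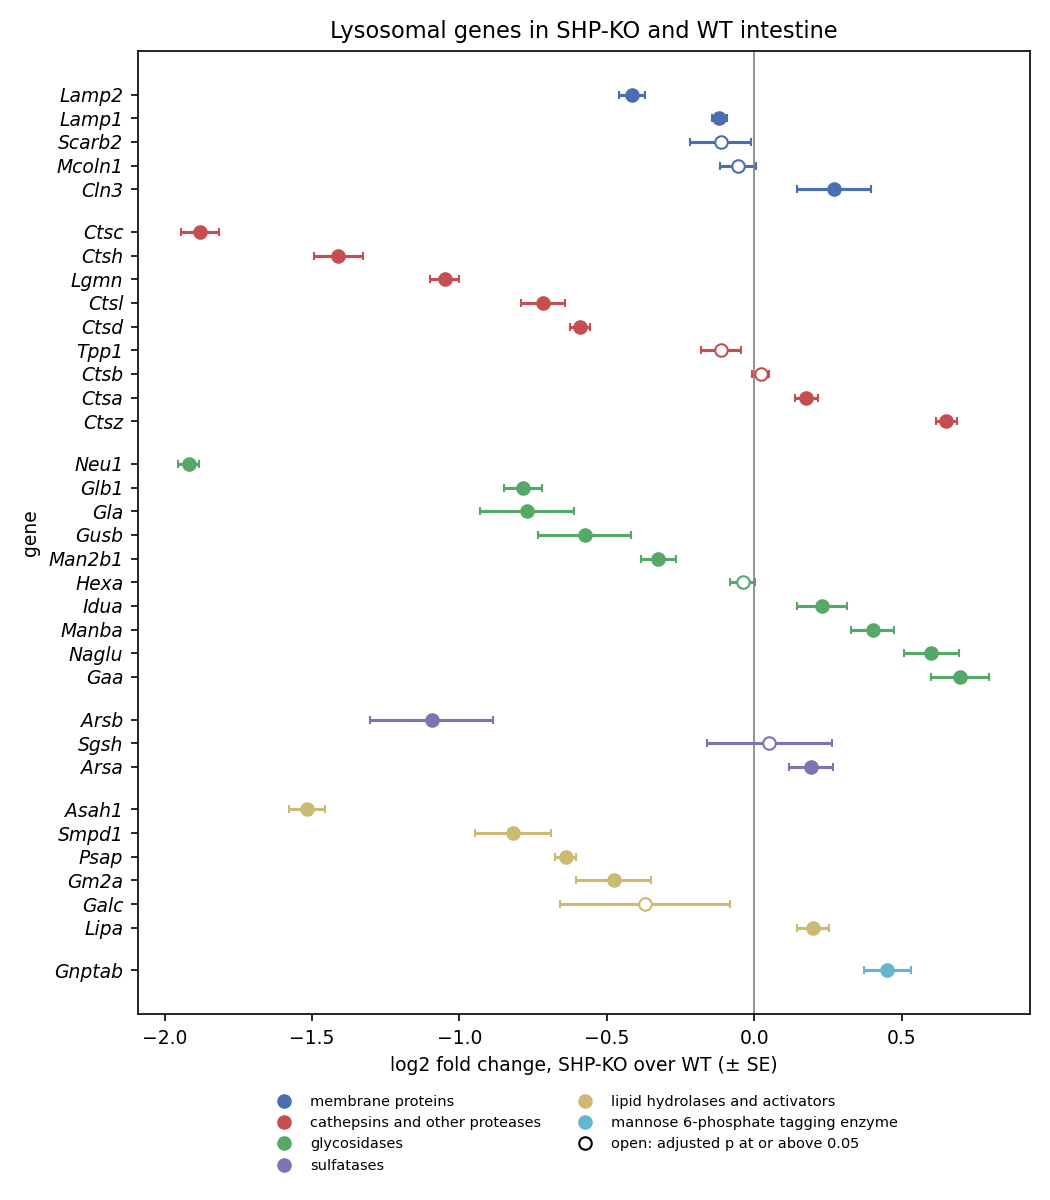
Log2 fold change of each of the 34 lysosomal genes (SHP-KO over WT, horizontal axis, with SE bars), grouped by role on the vertical axis. Filled points passed an adjusted p of 0.05 (edgeR) and open points did not. Neu1, Ctsc and Asah1 lie farthest to the left, at -1.92, -1.88 and -1.52, and Gaa and Ctsz farthest to the right, at 0.70 and 0.65.

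Promoter sequence was examined because a CACGTG-containing element is known in many, though not all, lysosomal genes. RefSeq promoters (GRCm38.p6, 250 bases before to 50 after a gene's start) were found for 31 of 34 members, with 35 entries, and Asah1, Ctsb and Ctsh have none in that table. The palindrome TCACGTGA occurred in 5 of 35 member promoters (14.3%) and in 320 of all 32851 (0.974%). Its shorter form TCACGTG, on either strand and counting the palindromes too, occurred in 12 member promoters (34.3%, beside 3.77% of all), and the core CACGTG, which contains neither flank and includes both longer forms, in 13 (37.1%, beside 7.15%). A match describes letters and not a bound site.

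The 5 genes with the palindrome were Gla, Ctsd, Cln3, Ctsa and Mcoln1. Windows of 100 bases around the palindrome are shown for the 4 whose change passed. Gla and Ctsd fell, and Ctsa and Cln3 rose. Whether the element bears on these changes was not tested. The rise of Cln3 was lost in 4 of 6 fits that leave out a library (edgeR, adjusted p 0.49 without WT replicate 3, log2 0.11). The rise of Ctsa was 1.13-fold and did not pass in the exact test with an assumed CV of 0.2 (adjusted p 0.62). Ctsa and Cln3 each have a further promoter entry that holds no match. Capitals mark TCACGTGA, and each sequence is 5′ to 3′ on the gene's strand. The windows are chrX:134601156-134601255 (minus strand) for Gla, chr7:142387873-142387972 (minus strand) for Ctsd, chr7:126583305-126583404 (minus strand) for Cln3 and chr2:164833703-164833802 (plus strand) for Ctsa.
Gla: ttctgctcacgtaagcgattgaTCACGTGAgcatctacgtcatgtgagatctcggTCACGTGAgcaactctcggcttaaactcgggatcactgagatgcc
Ctsd: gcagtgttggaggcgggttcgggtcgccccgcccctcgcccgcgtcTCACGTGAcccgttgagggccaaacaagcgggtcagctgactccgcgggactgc
Cln3: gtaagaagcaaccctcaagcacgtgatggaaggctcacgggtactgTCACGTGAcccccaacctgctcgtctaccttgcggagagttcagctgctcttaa
Ctsa: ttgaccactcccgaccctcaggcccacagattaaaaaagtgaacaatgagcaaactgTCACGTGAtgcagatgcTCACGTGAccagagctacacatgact

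The Gla window holds 2 matches, which begin 228 and 195 bases before the gene's start. In Ctsd the match begins 99 bases before the start and in Cln3 122 bases before it. Ctsa has 1 match that begins 13 bases before the start and a further one just after it. Over the 12 members whose promoter has TCACGTG, 5 fell, 5 rose and 2 did not pass (median log2 fold change 0.00). Over the 19 with a promoter entry and no match, 10 fell, 5 rose and 4 did not pass, with a median of -0.37. The second set holds Neu1, Ctsc, Arsb, Psap and Smpd1 among its falls, and its rises are Ctsz, Manba, Gnptab, Idua and Lipa. In the first set Lgmn, Glb1, Gla, Ctsd and Lamp1 fell, and Gaa, Naglu, Cln3, Arsa and Ctsa rose. Only exact matches within these promoters were counted, so a gene without one may still hold a variant or more distant element. The difference between the sets was not tested.

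Among the cathepsins and other proteases, 5 of 9 fell, 2 rose and 2 did not pass (median log2 fold change -0.59). Beside the counts of this role and of each role below, 35.4% of all tested genes fell and 35.2% rose. Each role holds few genes, and no role was tested against those shares. Ctsc, Ctsh, Lgmn, Ctsl and Ctsd fell, Ctsz and Ctsa rose, and Ctsb and Tpp1 did not pass. Ctsc encodes dipeptidyl peptidase I, which trims dipeptides from substrates and activates serine proteases of immune cell granules. The gene spans 95426603 to 95459385 of chromosome 7 (mm9). Its level was 88.3, 84.1 and 91.2 CPM in the WT libraries and 24.9, 23.3 and 23.5 CPM in the SHP-KO libraries. Every SHP-KO library was below every WT library, a 3.68-fold difference (log2 -1.88, SE 0.064, adjusted p 2.0e-44, edgeR).

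Ctsh, an aminopeptidase on chromosome 9 from 89949105 to 89970933 (mm9), had 38.9, 38.1 and 40.5 CPM in WT against 15.4, 14.1 and 14.8 CPM in SHP-KO. The groups were far apart, with Ctsh 2.66-fold lower (log2 -1.41, SE 0.082, adjusted p 4.4e-28, edgeR). Lgmn encodes legumain, which cuts after asparagine and matures other lysosomal proteases. It had 111, 112 and 106 CPM in WT against 54.3, 52.4 and 52.3 CPM in SHP-KO, again without overlap, and was 2.07-fold lower (log2 -1.05, SE 0.050, adjusted p 5.3e-34, edgeR).

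Ctsl, a cysteine endopeptidase, fell 1.64-fold, from 41.8 ± 2.76 to 25.5 ± 2.15 CPM (SD, n = 3). Ctsd, the main aspartic protease of lysosomes, had 305, 320 and 305 CPM in WT against 198, 205 and 213 CPM in SHP-KO. It thus fell 1.51-fold (log2 -0.59, SE 0.033, adjusted p 7.9e-29, edgeR) from the second highest level per length of the list. Both genes had SHP-KO libraries below all WT libraries.

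Ctsz, a carboxypeptidase also called cathepsin X, rose in the same libraries. The gene spans 174252995 to 174264493 of chromosome 2 (mm9). It had 162, 171 and 159 CPM in WT against 256, 260 and 256 CPM in SHP-KO. Every SHP-KO library was above every WT library, a 1.57-fold difference (log2 0.65, SE 0.035, adjusted p 1.2e-30, edgeR). Within a library the ratio of Ctsz to Ctsd in RPKM (CPM divided by exon length in kilobases) went from 0.742 ± 0.0078 in WT to 1.76 ± 0.065 in SHP-KO (SD, n = 3), so that their order reversed. Exons of Ctsz share bases with those of Th1l, and reads in the shared bases cannot be assigned.

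Ctsb and Ctsa changed little or not detectably. Ctsb, an abundant cysteine protease, had 447 ± 10.7 CPM in WT against 454 ± 9.76 CPM in SHP-KO (SD, n = 3), with overlapping groups. Its log2 fold change was 0.02, with a 95% interval of -0.03 to 0.08 (adjusted p 0.49, edgeR), and it was -0.02 without scaling factors and -0.04 without a filter on low counts. Ctsa, the protective protein that holds Neu1 and Glb1 in a complex, rose 1.13-fold, from 139 ± 1.94 to 157 ± 5.63 CPM (log2 0.18, SE 0.038). Ctsb shares exon bases with Fdft1, and Ctsa with Neurl2 and Pltp. Tpp1, which removes tripeptides, had a log2 fold change of -0.11 (95% interval -0.24 to 0.02, adjusted p 0.12, edgeR), although its SHP-KO libraries, at 39.2 to 42.1 CPM, were all just below its WT libraries, at 42.7 to 46.7 CPM.

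**Figure D2:**
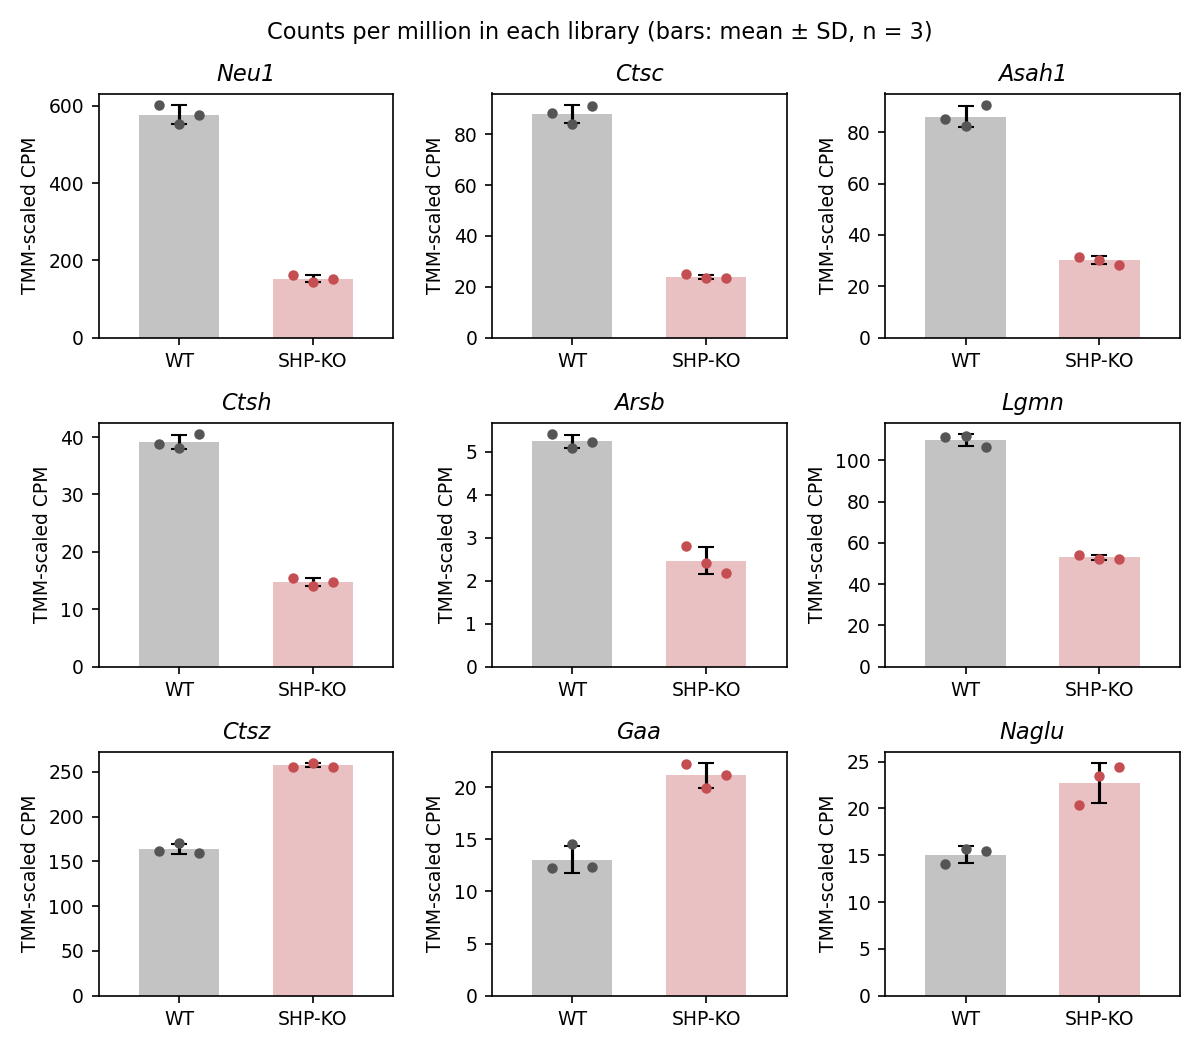
CPM (vertical axes, TMM-scaled, from 0) of the 6 members that fell at least 2-fold and the 3 that rose at least 1.5-fold, in WT and SHP-KO. Points are libraries and bars are the mean ± SD of 3. In none of the 9 panels do the groups overlap, and Neu1 goes from 577 to 153 CPM.

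The glycosidases went in both directions: 5 of 10 fell, 4 rose and 1 did not pass (median log2 fold change -0.18). Neu1, Glb1, Gla, Gusb and Man2b1 fell, Gaa, Naglu, Manba and Idua rose, and Hexa did not pass. Neu1 encodes the lysosomal sialidase, which removes terminal sialic acid from glycoproteins and glycolipids. The gene spans 35068198 to 35074242 of chromosome 17 (mm9). Its level was 602, 553 and 576 CPM in WT against 163, 143 and 153 CPM in SHP-KO. The groups did not overlap, and the 3.78-fold difference was the largest of the 34 genes (log2 -1.92, SE 0.035, adjusted p 9.2e-58, edgeR).

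The partners of Neu1 in its complex did not share this change in size. Glb1, the beta-galactosidase, had 56.1, 58.2 and 59.6 CPM in WT against 32.5, 32.5 and 36.0 CPM in SHP-KO, without overlap. It fell 1.72-fold (log2 -0.78, SE 0.065, adjusted p 3.6e-19, edgeR), and its exons share bases with those of Tmppe. The RPKM of Neu1 was 4.12, 3.85 and 3.90 times that of Ctsa in the WT libraries and 0.991, 0.836 and 0.961 times that in the SHP-KO libraries. The ratio of Glb1 to Ctsa in RPKM was 0.650 ± 0.018 in WT and 0.334 ± 0.031 in SHP-KO (SD, n = 3). Thus the RPKM of Neu1 exceeded that of Ctsa in every WT library and in no SHP-KO library. Which of the 2 is higher depends on the exon length used, 3674 bases for Ctsa, and on its bases shared with Neurl2 and Pltp. The fall of the ratio between genotypes does not depend on that length.

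The remaining glycosidases that fell were of low or middle level. Gla, the alpha-galactosidase A that removes galactose from globotriaosylceramide, fell 1.71-fold, from 9.13, 7.80 and 8.84 CPM in WT to 3.44, 5.80 and 5.73 CPM in SHP-KO (log2 -0.77, SE 0.16). The SHP-KO libraries of Gla were the most scattered of any member, with replicate 1 lowest, and without that library its log2 fold change was -0.58. Gusb, the beta-glucuronidase, fell 1.49-fold, from 7.53 ± 0.17 to 5.07 ± 0.51 CPM. Man2b1, an alpha-mannosidase of N-glycan breakdown, fell less, from 62.9 ± 2.15 to 50.2 ± 2.95 CPM (SD, n = 3; log2 -0.33, SE 0.059).

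Gaa and Naglu had the larger rises. Gaa, the acid alpha-glucosidase that degrades glycogen, had 12.3, 14.6 and 12.3 CPM in WT against 22.3, 19.9 and 21.2 CPM in SHP-KO. It was 1.62-fold higher without overlap (log2 0.70, SE 0.098, adjusted p 1.3e-09, edgeR). Naglu, which removes N-acetylglucosamine from heparan sulfate, had 14.0, 15.7 and 15.5 CPM in WT against 20.4, 23.4 and 24.4 CPM in SHP-KO. Its groups did not overlap, and it was 1.52-fold higher (log2 0.60, SE 0.093, adjusted p 2.2e-08, edgeR).

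Manba, the beta-mannosidase, rose 1.32-fold, from 26.1 ± 0.43 to 34.5 ± 0.58 CPM (SD, n = 3). Idua, the iduronidase of heparan and dermatan sulfate, rose 1.17-fold (log2 0.23, SE 0.084, adjusted p 0.012, edgeR), a call lost without SHP-KO replicate 2 (log2 0.18, adjusted p 0.10). Hexa, an enzyme subunit of ganglioside breakdown, had 113 to 118 CPM in WT against 110 to 115 CPM in SHP-KO, and its log2 fold change of -0.04 had a 95% interval of -0.12 to 0.04.

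Lipid hydrolases and their activators mostly fell: 4 of 6 fell, 1 rose and 1 did not pass (median log2 fold change -0.56). Of all tested genes 35.4% fell, and 6 genes are few to set beside that share. Asah1, Smpd1, Psap and Gm2a, all of sphingolipid breakdown, fell, Lipa rose and Galc did not pass. Asah1 encodes acid ceramidase, which splits ceramide into sphingosine and fatty acid, and lies on chromosome 8 from 42425997 to 42460051 (mm9). It had 85.0, 82.6 and 90.5 CPM in WT against 31.6, 30.3 and 28.4 CPM in SHP-KO. The groups lay far apart, with a 2.86-fold difference (log2 -1.52, SE 0.061, adjusted p 7.1e-39, edgeR).

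Psap encodes the precursor of the saposins, small proteins that present sphingolipids to their hydrolases. It had 256, 263 and 260 CPM in WT against 170, 163 and 167 CPM in SHP-KO. Without any overlap it fell 1.56-fold (log2 -0.64, SE 0.035, adjusted p 3.5e-30, edgeR). Smpd1, acid sphingomyelinase, fell 1.76-fold, from 13.1 ± 0.87 to 7.39 ± 1.21 CPM (log2 -0.82, SE 0.13). Gm2a, the activator that lifts GM2 ganglioside out of the membrane for its hydrolase, fell 1.39-fold, from 12.0 ± 1.10 to 8.60 ± 0.93 CPM (SD, n = 3).

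Lipa, the acid lipase that frees cholesterol and fatty acids from esters taken up in lipoproteins, was the member of this group that rose. It had 62.2, 72.2 and 68.2 CPM in WT against 78.0, 72.4 and 81.9 CPM in SHP-KO. The lowest SHP-KO library was barely above the highest WT library, and the rise was 1.15-fold (log2 0.20, SE 0.054, adjusted p 0.00070, edgeR). Galc, which removes galactose from galactosylceramide, had only 81 counts summed over WT and 42 over SHP-KO. Its log2 fold change of -0.37 had a 95% interval of -0.94 to 0.20, so a difference was not detectable at this depth.

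The 3 sulfatases gave 1 fall, 1 rise and 1 that did not pass. Arsb, which removes sulfate from dermatan sulfate, lies on chromosome 13 from 94541634 to 94712971 (mm9) and had 5.40, 5.09 and 5.22 CPM in WT against 2.80, 2.41 and 2.18 CPM in SHP-KO. It fell 2.13-fold without overlap (log2 -1.09, SE 0.21, adjusted p 2.8e-06, edgeR). Arsa, the sulfatase of sulfatide, rose slightly, from 28.0 ± 1.36 to 32.0 ± 1.42 CPM (adjusted p 0.018, edgeR), a call lost without WT replicate 2 (adjusted p 0.094) or SHP-KO replicate 1 (adjusted p 0.093). Sgsh, the sulfamidase of heparan sulfate, which shares exon bases with Card14, had 131 WT counts, 91 SHP-KO counts and a log2 fold change of 0.05 (95% interval -0.36 to 0.47).

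Among the 5 membrane proteins, Lamp1 and Lamp2 fell, Cln3 rose, and Scarb2 and Mcoln1 did not pass (median log2 fold change -0.11). None of the 5 changed by 1.5-fold. Lamp1, a glycoprotein that lines the lysosomal membrane, had the highest level per length of all members in both genotypes. It had 979, 945 and 986 CPM in WT against 903, 872 and 907 CPM in SHP-KO, which do not overlap but differ only 1.09-fold (log2 -0.12, SE 0.026, adjusted p 3.2e-05, edgeR). Lamp2, its relative that also serves chaperone-mediated autophagy, fell 1.33-fold, from 124 ± 3.94 to 92.9 ± 3.88 CPM (log2 -0.42, SE 0.044). That fall did not pass in the exact test with an assumed CV of 0.2 (adjusted p 0.18), nor did that of Lamp1 (adjusted p 0.76).

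Scarb2, the receptor that carries beta-glucocerebrosidase to the lysosome, had a log2 fold change of -0.11 (95% interval -0.32 to 0.09). Mcoln1, a cation channel that releases lysosomal calcium, had one of -0.05 (95% interval -0.17 to 0.06). For Cln3, a membrane protein mutated in a childhood storage disease, WT libraries were at 11.1, 11.4 and 7.86 CPM and SHP-KO libraries at 11.7, 13.0 and 11.7 CPM. The rise of Cln3 (log2 0.27, SE 0.12, adjusted p 0.047, edgeR) did not hold without WT replicate 3 (log2 0.11, adjusted p 0.49), without SHP-KO replicate 1, 2 or 3 (adjusted p 0.056, 0.19 and 0.059), and in several other settings.

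Gnptab, which encodes the subunits of the phosphotransferase that starts the mannose 6-phosphate tag, rose. It had 20.7, 23.9 and 22.5 CPM in WT against 30.3, 28.3 and 33.1 CPM in SHP-KO. The groups did not overlap, and the difference was 1.37-fold (log2 0.45, SE 0.080, adjusted p 5.8e-07, edgeR). It did not pass in the exact test with an assumed CV of 0.2 (adjusted p 0.16).

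Per length, the order of the abundant members changed between genotypes. In WT the highest levels were those of Lamp1 (430 ± 9.86 RPKM, SD, n = 3), Ctsd (159 ± 4.31), Neu1 (150 ± 6.26) and Ctsz (118 ± 4.21). Psap (95.04 ± 1.20 RPKM) and Ctsb (94.3 ± 2.25 RPKM) followed and did not differ beyond their spread. In SHP-KO the order was Lamp1 (396 ± 8.46 RPKM), Ctsz (185 ± 1.58), Ctsd (105 ± 3.83), Ctsb (95.8 ± 2.06) and Psap (61.0 ± 1.36), the last level with Hexa (60.6 ± 1.41 RPKM). Neu1 moved from the third to the eighth place, at 39.7 ± 2.62 RPKM, and Ctsc from the 11th to the 18th. Galc was lowest in both genotypes, at 0.566 ± 0.080 and 0.436 ± 0.094 RPKM.

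**Figure D3:**
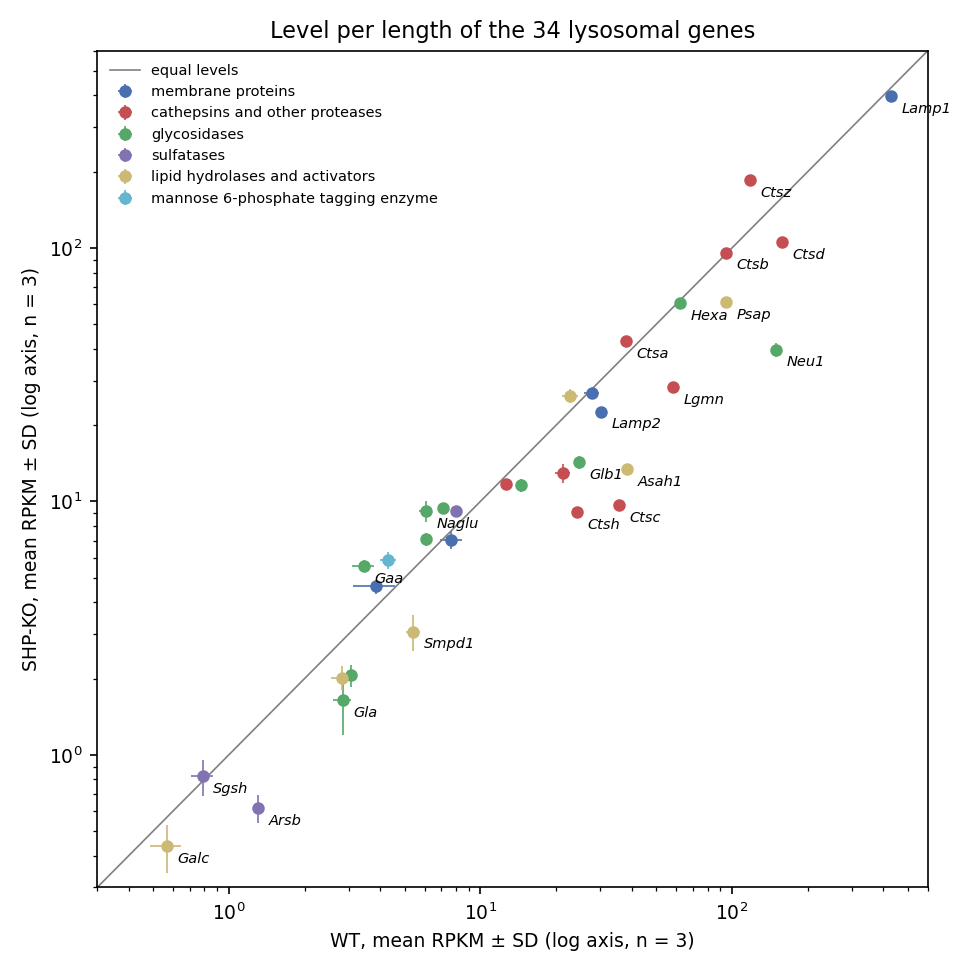
Mean RPKM ± SD (3 libraries each) of the 34 members in WT (horizontal log axis) and SHP-KO (vertical log axis), coloured by role. Points below the line of equal levels are lower in SHP-KO. Neu1, Ctsc, Asah1 and Ctsh lie far below the line, while Lamp1, Ctsb and Hexa lie on or close to it.

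Summed over all 34 members, the level was 3979, 3947 and 3963 CPM in the WT libraries and 3157, 3089 and 3123 CPM in the SHP-KO libraries. The mean was 21.2% lower in SHP-KO, and Neu1, at 14.6% of the WT sum and 4.90% of the SHP-KO sum, made up 424 of the 840 CPM between the means. Without Neu1 the sum was 12.3% lower. Glycosidases summed to 905 ± 25.4 CPM in WT against 462 ± 6.12 CPM in SHP-KO, lipid hydrolases and activators to 440 ± 8.11 against 292 ± 6.86 CPM, proteases to 1383 ± 18.8 against 1233 ± 7.50 CPM, and membrane proteins to 1176 ± 15.9 against 1067 ± 18.1 CPM (SD, n = 3). Neu1 made up 424 of the 443 CPM between the glycosidase means, and the other 9 glycosidases summed to 328 ± 1.88 against 309 ± 3.98 CPM, 5.67% lower. The 3 sulfatases summed to 36.6 ± 1.77 and 38.1 ± 2.30 CPM, which overlap. These sums carry no test.

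**Figure D4:**
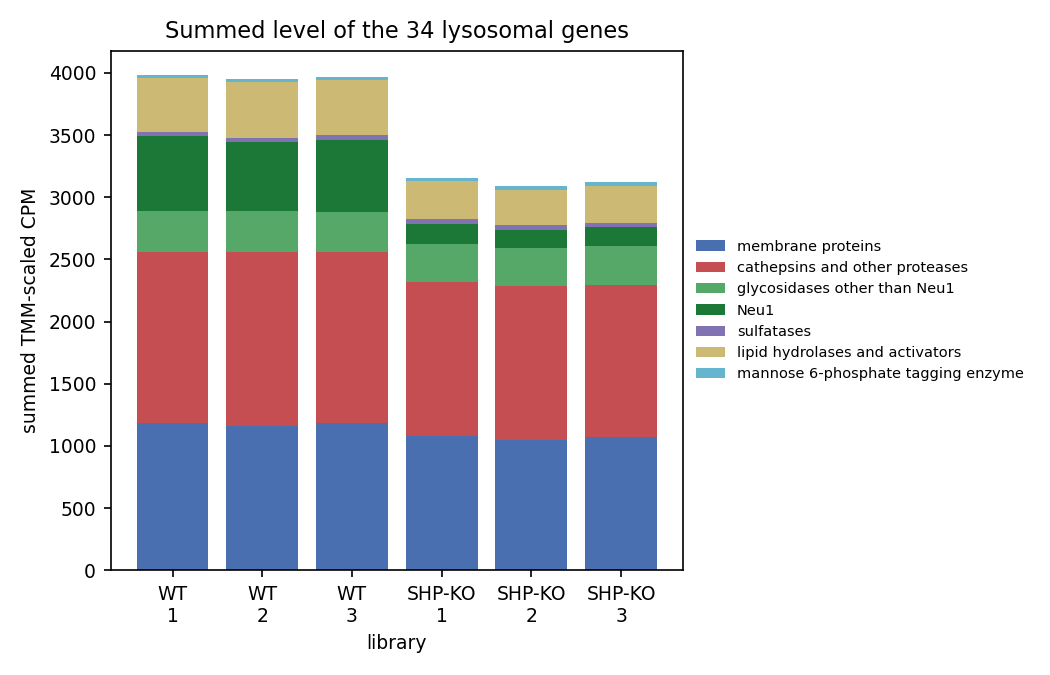
Summed TMM-scaled CPM (vertical axis, from 0) of the 34 members in each of the 6 libraries (horizontal axis), stacked by role, with Neu1 drawn apart from the other glycosidases. The WT bars reach 3947 to 3979 CPM and the SHP-KO bars 3089 to 3157 CPM, and the Neu1 segment shrinks most.

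Other hydrolases and activators of the lysosome, 31 tested of 34 listed, gave 16 falls, 6 rises and 9 that did not pass (median log2 fold change -0.23). Their log2 fold changes ran from -1.03 to 2.64. Beside the counts of this list and of the lists below, 70.6% of all tested genes were called, with 35.4% lower and 35.2% higher. Ctss, a cysteine protease of antigen-presenting cells, fell from 294 ± 9.44 to 144 ± 2.38 CPM (log2 -1.03). Acp5, a tartrate-resistant acid phosphatase, fell from 144 ± 2.75 to 76.7 ± 4.66 CPM. Naaa, an acid amidase of N-acylethanolamines, rose from 60.2 ± 2.72 to 107 ± 2.64 CPM (SD, n = 3).

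Other lysosomal membrane proteins had more rises than falls, with 12 higher, 6 lower and 5 not passing of 23 tested and a median log2 fold change of 0.19. Slc36a1, a proton-coupled amino acid transporter of lysosomes that absorptive cells also carry at their surface, was at 19.8, 21.7 and 21.2 CPM in WT against 391, 386 and 379 CPM in SHP-KO (log2 4.21, SE 0.045, adjusted p 1.4e-83, edgeR). In all 3 SHP-KO libraries it was far above WT. Sidt2 rose by log2 0.63, the peptide transporter Abcb9 rose from 15.3 ± 0.45 to 33.8 ± 2.12 CPM, and Laptm4b fell by 0.70 on the log2 scale.

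Subunits of the proton pump gave 4 rises, 6 falls and 8 that did not pass of 18 tested (median log2 fold change -0.01). The list holds 24 subunits, of which 2 had no counts in any library. Atp6v0c, Atp6v1b1 and Atp6v1e2 had no counts in SHP-KO, so the pump is covered only in part. Atp6v0a1, a subunit of the membrane sector, rose from 91.5 ± 5.85 to 192 ± 8.996 CPM (log2 1.07), and Atp6v0b rose by log2 0.39. Atp6v1g1 and the accessory subunit Atp6ap2 fell by 0.59 and 0.47 on the log2 scale. The calls of Atp6v0b and Atp6ap2 were lost in the exact test with an assumed CV of 0.2 (adjusted p 0.22 and 0.12).

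Genes of tagging and sorting, other than Gnptab, gave 3 rises, 5 falls and 3 that did not pass of 11. Sort1, the sorting receptor sortilin, fell from 128 ± 3.88 to 56.2 ± 1.77 CPM (log2 -1.19), and Vps35 of the retromer fell by 0.61 on the log2 scale. Gga1 and Gga3, adaptors that load hydrolase receptors into vesicles, rose. Gga3 went from 14.0 ± 0.88 to 33.5 ± 2.94 CPM, and Gga1 by log2 0.54, which did not pass with the assumed CV (adjusted p 0.066).

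Of 20 tested transcription factors and genes of mTORC1, the kinase complex that restrains TFEB, 9 rose, 3 fell and 8 did not pass. Tfeb itself had 31.5, 33.1 and 31.7 CPM in WT against 33.9, 33.7 and 32.8 CPM in SHP-KO. It missed the threshold (log2 0.06, SE 0.071, adjusted p 0.45, edgeR). Tfe3, its relative, had 38.9, 43.9 and 40.0 CPM in WT against 57.9, 63.1 and 60.7 CPM in SHP-KO. That rise (log2 0.57, SE 0.062) passed in edgeR's quasi-likelihood test and not with the assumed CV (adjusted p 0.057). Flcn, which controls the nuclear entry of TFEB and TFE3, rose by log2 1.37 and Zkscan3, described as a repressor of such genes, by log2 0.78, whereas Rheb, an activator of mTORC1, fell by 0.56 on the log2 scale and did not pass with the assumed CV (adjusted p 0.065). Mitf, at a mean of 0.58 CPM in WT against 0.52 CPM in SHP-KO, was too low to be tested.

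Macrophages and dendritic cells, whose lysosomes are rich in cathepsins, were followed with 16 markers. Of 12 tested, 5 fell, 2 rose and 5 did not pass, and the summed level of all 16 was 263 to 267 CPM in WT against 144 to 155 CPM in SHP-KO. Most of that sum came from Mertk and Lyz2, which fell by 0.76 and 2.56 on the log2 scale, whereas Itgam rose by log2 1.63. Siglec1 had no counts in any library. Among B and plasma cell markers, Igj, the joining chain of secreted antibodies, rose from 34.5 ± 1.02 to 100.1 ± 7.13 CPM (SD, n = 3). The other 11 all fell, with a summed level of 97.0 to 103 CPM in WT and of 4.05 to 5.85 CPM in SHP-KO, and Cr2, Fcer2a and Faim3 had no counts in SHP-KO. The part of immune, muscle, fibroblast and fat cells in the changes of the members was not tested.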

How the data were processed

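Per the file headers, the deposited counts are whole numbers of reads over exons, summed by gene with featureCounts 1.5.2 and without regard to strand. No option to count reads that touch 2 genes is named there. Per the submitters' processing notes, the tools were STAR 2.6.0c, Trimmomatic 0.38, FastQC 0.11.5, bcl2fastq 2.17.1.14 and edgeR (no version), with mm9. The authors' deposited table gives log2 fold changes, log2 mean CPM and p-values with adjusted p-values, per the file headers.

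Counts were TMM-scaled and tested with edgeR 4.0.16 (quasi-likelihood, robust, filterByExpr with a minimum count of 10) in R 4.3.3, adjusted over all 12106 tested genes at 0.05. CPM is on the TMM-scaled library size of the tested genes, and RPKM is CPM divided by the exon length in the files. SEs come from that fit, and 95% intervals are 1.96 SE to each side. Total counts, 7956528 to 13511800, limit the precision of low values. The script was tested on simulated data.

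The members and lists were chosen with earlier results of these data known. All members were named, with Nr0b2, up to 4 genes of the smallest p per lysosomal list (besides Tfeb, Tfe3 and Mitf) and markers by the same rule, up to 3 per list. A gene that this rule names is not reported here. Promoter windows are for up to 4 called members with TCACGTGA. Alternatives were other scalings, filters and tests (DESeq2 1.42.0, limma-voom 3.58.1, an exact test with an assumed CV of 0.2), a fit with the replicate block, one with robust estimation off, each library left out, and Galc among the glycosidases. Figures were drawn with matplotlib 3.10.9.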

Additional observations from a re-analysis of the deposited data

How the results depend on the processing

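No call of a member turned its direction in any setting. With the exact test and an assumed CV of 0.2, the calls among all genes were 4041 (2164 higher, 1877 lower) in place of 8543, and among members 14 (2 higher, 12 lower) in place of 27. Without any 1 library, called members numbered 25 to 27, rises 8 to 10, and all genes called 8260 to 8407. Without a filter the medians were -0.28 for all members, -0.65 for proteases, -0.24 for glycosidases and -0.62 for lipid hydrolases; without scaling factors they were -0.63 for proteases and -0.60 for lipid hydrolases. Leaving out a library moved the lipid hydrolase median between -0.61 and -0.54. With Galc among the glycosidases, the medians were -0.33 for glycosidases and -0.64 for lipid hydrolases. With DESeq2, 7 members rose and 17 fell; without a filter 7 rose and 19 fell. The cause of these shifts was not tested, except that moving Galc changes which genes are counted.

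Same-numbered libraries of the 2 genotypes deviated together little (r over genes -0.0054 to 0.028, beside -0.030 to 0.0098 for differently numbered ones). Such values cannot settle whether the labels' numbers pair the libraries. With the replicate block, 8573 genes and the same number of members, 27, were called. Low counts limit Galc, Sgsh and Arsb most.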
